A study of Mus musculus with 7 samples.

Results

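The 8 genes described here, Pdgfra, Cspg4, Olig1, Olig2, Sox10, Gpr17, Nkx2-2 and Bmp4, are genes by which oligodendrocyte precursors and their committed progeny are recognised in mouse brain. They were taken by gene name, with earlier results of these data known, and they are 8 of the 23325 genes and transcripts that were tested on these arrays. All 8 were well above background on all 7 arrays, so none was lost to the filter on dim probes. Each gene is given by its brightest probe, as the log2 of the processed signal minus the log2 of the array's own 75th percentile. A log2 level of 0 therefore stands for a signal equal to that percentile. Levels of a gene are compared between arrays for 1 probe, not between probes. Sums and medians of marker lists take in the probes of several genes, so bright probes weigh most in the sums.

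Total RNA from brain tissue of male mice on the C57BL/6N background was hybridised to 1-colour oligonucleotide arrays, 1 sample per array. The labels gave 3 arrays as wild type and 3 as Pla2g2e-deficient, both 3 days after a transient occlusion of the middle cerebral artery of 60 min, a model of ischemic stroke, and 1 array as wild type after sham operation. The age of the mice, the day of the sham sample and the brain region or hemisphere taken are not stated in the labels, and the treatment text attached to the sham sample also describes the occlusion. The stated comparison was of Pla2g2e-deficient with wild-type brain. Pla2g2e encodes a secreted phospholipase A2. The labels do not say whether the 3 samples of a group are 3 mice, and p-values here rest on a spread between samples that may be partly or wholly technical.

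Oligodendrocyte precursors are the dividing glial cells that give rise to myelinating oligodendrocytes, and they stay present throughout the adult brain. Pdgfra is their receptor for platelet-derived growth factor, a signal for division and survival, and Cspg4 encodes NG2, the surface proteoglycan for which they are also named. Olig1, Olig2, Sox10 and Nkx2-2 are transcription factors of the lineage, Gpr17 is a receptor that marks committed precursors just before myelination, and Bmp4 is a ligand that restrains oligodendrocyte differentiation. Outside the lineage, Pdgfra is carried by fibroblasts and Cspg4 by pericytes. RNA of whole tissue was measured, so fewer cells of a type and less RNA per cell cannot be told apart.

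The arrays were of similar brightness, with 72.5% to 79.1% of spots well above background and 75th percentiles of 1350 to 1859. Wild type day 3 replicate 1 stood apart from the other 6 arrays. Across genes, which are not independent replicates, it correlated with them at 0.857 to 0.916, against 0.968 to 0.991 among the others. Knockout day 3 replicate 2 correlated with the sham array at 0.991, against 0.974 and 0.968 for knockout replicates 1 and 3. Its correlation with wild type day 3 replicate 1 was 0.916, against 0.863 and 0.857 for those arrays. That value was still the lowest of its own correlations, which were 0.970 to 0.991 with the remaining arrays. On wild type day 3 replicate 1 the 14 cell cycle genes summed to a linear level of 1.098 array percentiles. The other 6 arrays gave 22.6 to 33.8. On the same replicate 15 microglia and macrophage markers summed to 55.4, against 296 to 363 on the other 6. The array labelled sham lay within the range of the other day 3 arrays in both sums, at 33.5 and 323. The labels of wild type day 3 replicate 1 and of the sham array may be wrong, which was not tested. Every array is named here by its label, so "sham" means the array labelled sham, and all differences from sham and all wild type day 3 means hold only as far as these labels do. Neuronal markers summed to 199.99 on wild type day 3 replicate 1 and to 18.8 to 59.8 elsewhere. The brighter Pla2g2e probe read -6.89 to -3.36 on the wild type day 3 arrays and -5.83 to -4.44 on the knockout arrays, which overlap through wild type day 3 replicate 1 alone. The other wild type day 3 arrays, at -3.68 and -3.36, were above all 3 knockout arrays, and the sham array, at -4.69, was within their range. The dimmer probe, well above background on 3 of 7 arrays, read -9.0002, -6.72 and -6.50 in wild type day 3, -6.83 in sham and -7.94, -8.44 and -7.84 in the knockout. Whether either probe lies in the deleted part is not stated, so they check no label. The wild type day 3 and sham arrays shared 1 slide and the knockout arrays another, and genotype cannot be told apart from slide. Results are given with and without wild type day 3 replicate 1.

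Of the lineage transcription factors, Nkx2-2 and Olig2 are shown by the sequence upstream of their start because they followed 1 pattern over the arrays, and Pdgfra and Bmp4 because they followed another. Capitals mark the letters CANNTG, the E-box to which basic helix-loop-helix factors such as the products of Olig1 and Olig2 bind. The 250 bases before each start are from RefSeq on GRCm38.p6 and are shown 5′ to 3′ on the strand of the gene. They were taken for 5 of the 8 genes, with Gpr17 left out by a rule on its chromosome. CANNTG reads the same on both strands, and it occurs in 66.2% of 32851 such mouse promoters, with a median of 1 per promoter and 3 or more in 12.2%. The stretch of Nkx2-2 (chr2:147186403-147186652, minus strand) holds 3 and that of Olig2 (chr16:91225300-91225549, plus strand) holds 0. Pdgfra (chr5:75152001-75152250, plus strand) holds 1 and Bmp4 (chr14:46390670-46390919, minus strand) holds 3. The stretch of Cspg4, which was nearest to Pdgfra among the 8 and is not shown, holds 0. The number of E-box letters thus differed between genes of the same pattern, and a match is a description of the letters only.
Nkx2-2: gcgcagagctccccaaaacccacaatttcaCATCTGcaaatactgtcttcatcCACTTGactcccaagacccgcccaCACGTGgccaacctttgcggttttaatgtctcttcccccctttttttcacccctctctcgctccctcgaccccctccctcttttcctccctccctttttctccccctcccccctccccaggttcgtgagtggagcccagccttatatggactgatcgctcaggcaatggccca
Olig2: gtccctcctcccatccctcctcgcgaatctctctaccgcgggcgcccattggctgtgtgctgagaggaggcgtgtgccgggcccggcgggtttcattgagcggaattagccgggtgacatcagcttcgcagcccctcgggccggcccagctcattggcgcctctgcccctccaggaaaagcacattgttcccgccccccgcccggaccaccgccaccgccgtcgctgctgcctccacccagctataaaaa
Pdgfra: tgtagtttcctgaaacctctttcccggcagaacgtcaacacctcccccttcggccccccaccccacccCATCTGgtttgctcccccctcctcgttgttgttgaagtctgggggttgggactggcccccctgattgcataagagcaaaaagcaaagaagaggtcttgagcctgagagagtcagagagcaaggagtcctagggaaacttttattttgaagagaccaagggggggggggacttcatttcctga
Bmp4: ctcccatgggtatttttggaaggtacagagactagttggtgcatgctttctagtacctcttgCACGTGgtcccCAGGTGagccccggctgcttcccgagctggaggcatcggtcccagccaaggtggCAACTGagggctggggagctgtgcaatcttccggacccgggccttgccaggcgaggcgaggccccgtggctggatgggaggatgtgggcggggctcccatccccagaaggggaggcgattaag

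The 4 transcription factors were all highest on the sham array and all lowest on knockout day 3 replicate 3. Olig2, which sets and maintains the identity of the lineage, is measured at chr16:91228470-91228529 (mm9, the build of the array's probe positions). It read -1.44, -1.01 and -1.18 on wild type day 3 replicates 1, 2 and 3, -0.06 on the sham array and -0.85, -0.47 and -1.59 on knockout day 3 replicates 1, 2 and 3. The sham array was 0.95 above the highest wild type day 3 array and 0.41 above the highest knockout array, while the day 3 groups overlapped. Olig1, the neighbouring paralog that promotes differentiation and repair, has its probe 43329 bases away at chr16:91271799-91271858. Olig1 read 2.49, 2.38 and 1.95 in wild type day 3, 3.35 in sham and 2.32, 3.03 and 1.89 in the knockout. Again no day 3 array reached the sham array, and knockout replicate 2 came nearest.

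Sox10, a factor needed at every later step of the lineage and a direct activator of myelin genes, is measured at chr15:78985518-78985577. It read 0.69, 0.90 and 0.87 in wild type day 3, 1.70 in sham and 1.40, 1.55 and 0.22 in the knockout. The knockout arrays of Sox10 lay on both sides of the wild type day 3 arrays, 2 above all of them and 1 below all of them. Nkx2-2, a homeodomain factor that acts at the switch to differentiation, read -2.60, -2.72 and -2.98 in wild type day 3, -1.98 in sham and -2.41, -2.12 and -3.24 in the knockout at chr2:147008949-147009008. Its knockout arrays were spread in the same way, with replicate 3 again below every wild type day 3 array.

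Over the 7 arrays the levels of the 4 factors, each centred on its own mean, kept close to one another. The root mean square difference between 2 genes was 0.16 for Olig2 and Sox10, 0.17 for Olig1 and Nkx2-2, 0.18 for Sox10 and Nkx2-2, 0.22 for Olig2 and Nkx2-2, 0.24 for Olig1 and Olig2 and 0.30 for Olig1 and Sox10. The range of each factor over the arrays, a different measure from the root mean square, was 1.26 to 1.53. The sham array was the highest of 7 for 6.67% of all genes and for 5 of the 8 genes here, the factors and Cspg4. Knockout day 3 replicate 3 was the lowest of 7 for 17.4% of all genes and for 4 of the 8, the factors.

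**Figure D1:**
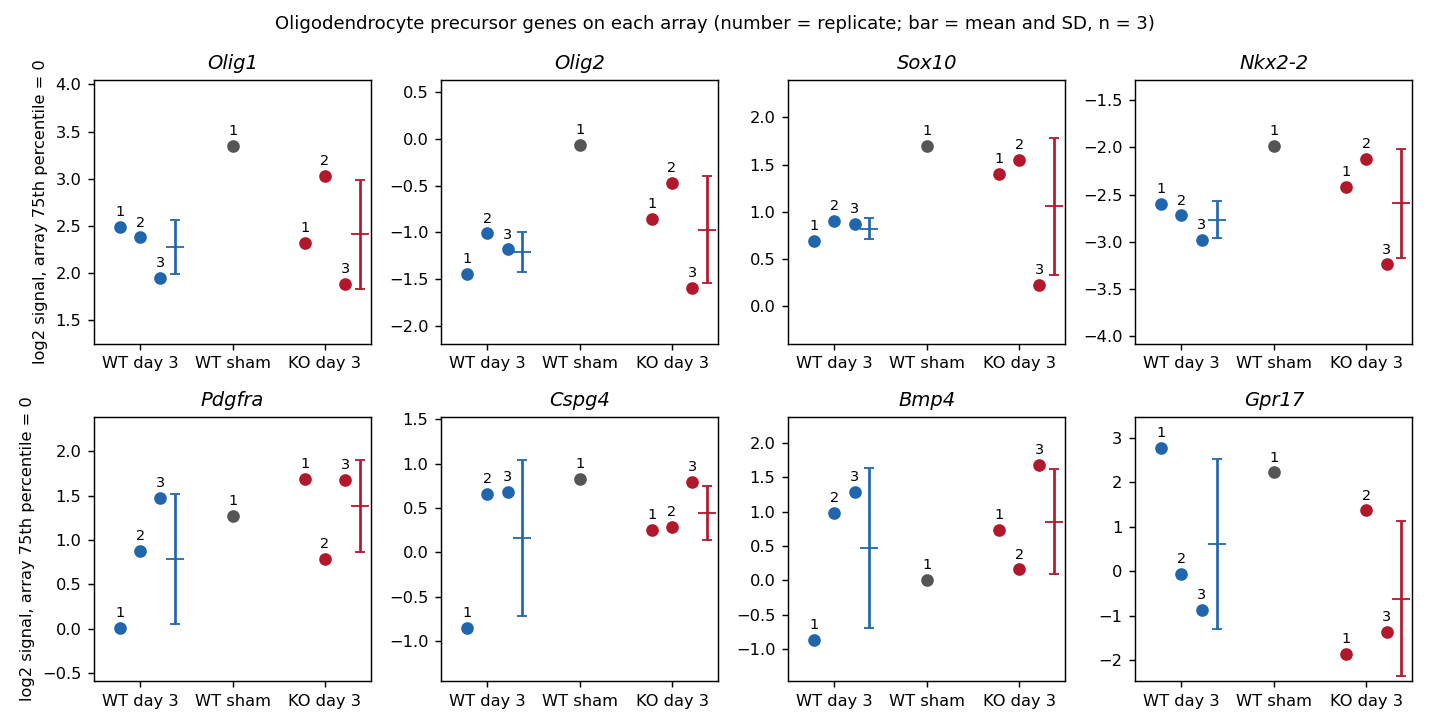
Log2 level of each of the 8 genes relative to the array's 75th percentile (y axis) on each of the 7 arrays, by labelled group, 1 panel per gene; points are single arrays with their replicate number, and bars are the mean and SD of the 3 arrays of a group. Olig1, Olig2, Sox10 and Nkx2-2 are highest on the sham array, Pdgfra, Cspg4 and Bmp4 are lowest on wild type day 3 replicate 1, and Gpr17 spans 4.63.

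Myelin genes, which the factors control or accompany, had their lowest array in common with them. Of 20 myelin and mature oligodendrocyte genes, 16 were lowest on knockout day 3 replicate 3, against 17.4% of all genes. Of the 12 neuronal markers 10 were also lowest there, so that lowest array was not particular to the lineage. The median level of the myelin genes was 0.79, 0.91 and 0.60 in wild type day 3, 2.18 in sham and 1.47, 2.22 and -0.53 in the knockout. The low and high arrays of the myelin list were thus those of the 4 factors, apart from knockout replicate 2, which here reached the sham array. The part of myelinating cells in the values of the factors was not tested.

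Pdgfra, the growth factor receptor, followed another order. Its probe at chr5:75593888-75593947, printed at 10 spots per array and averaged, read 0.01, 0.88 and 1.47 in wild type day 3, 1.27 in sham and 1.68, 0.79 and 1.67 in the knockout. Wild type day 3 replicate 1 was the lowest array and lay 1.71-fold under the next lowest, knockout replicate 2. The sham array lay inside both day 3 groups' span, so the groups overlapped in every comparison of this gene.

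Cspg4, the NG2 proteoglycan, read -0.85, 0.66 and 0.68 in wild type day 3, 0.82 in sham and 0.25, 0.29 and 0.80 in the knockout at chr9:56746627-56746686. Wild type day 3 replicate 1 was 2.14-fold under the lowest of the other 6 arrays, which spanned 0.57 on the log2 scale. The sham array was the highest, but by only 0.03 over knockout replicate 3 and 0.14 over wild type day 3 replicate 3. Bmp4, the ligand, read -0.87, 0.98 and 1.29 in wild type day 3, 0.01 in sham and 0.73, 0.16 and 1.68 in the knockout at chr14:47003391-47003450. It was the only one of the 8 for which every knockout array was above the sham array, and wild type day 3 replicate 1 was 1.83-fold under the lowest of the others.

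Pdgfra and Cspg4 were 0.36 apart by the root mean square difference, Pdgfra and Bmp4 0.49, and Pdgfra and the 4 factors 0.72 to 0.86. These 3 genes were lowest of 7 on wild type day 3 replicate 1, as were 34.3% of all genes, so their place there is shared with a large part of the array. Markers of other cells that carry Pdgfra or Cspg4 were low on the same array. The 12 fibroblast markers summed to 14.5 on it against 90.5 to 172 on the other 6, and the 14 pericyte and smooth muscle markers to 14.8 against 37.3 to 51.1. Of the fibroblast markers 10 of 12 were lowest on that array, and of the pericyte and smooth muscle markers 11 of 14. The part of these cells in the values of Pdgfra and Cspg4 was not tested.

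**Figure D2:**
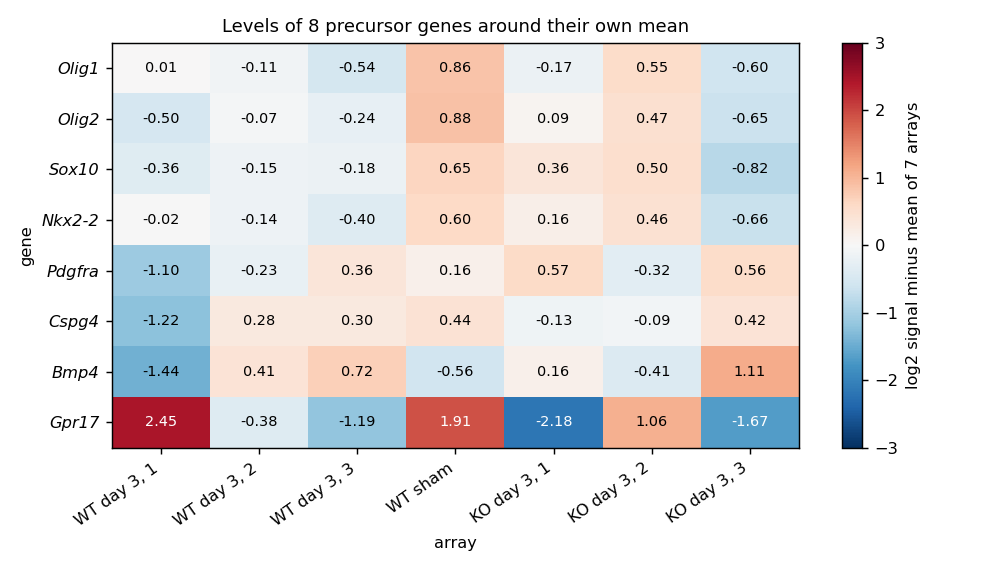
Heat map of the 8 genes (rows) on the 7 arrays (columns); colour and number give the log2 level minus the gene's own mean over the 7 arrays. Olig1, Olig2, Sox10 and Nkx2-2 are 0.60 to 0.88 above their mean on the sham array and 0.60 to 0.82 below it on knockout day 3 replicate 3, while Gpr17 runs from -2.18 to 2.45.

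Gpr17, the receptor of committed precursors, varied most of the 8. It read 2.76, -0.07 and -0.88 in wild type day 3, 2.22 in sham and -1.87, 1.37 and -1.36 in the knockout. Wild type day 3 replicate 1, the sham array and knockout replicate 2 were high and the other 4 arrays were low, so both day 3 groups held high and low arrays. Its range of 4.63 on the log2 scale, 24.7-fold, was at the 96.0th percentile of the ranges of all genes, whose median was 1.20. Without wild type day 3 replicate 1 its range was 4.09 over the other 6 arrays, at percentile 99.2 of all genes, against a median of 0.65. The level on wild type day 3 replicate 1 was 7.26-fold the geometric mean of the other 6, and that array was the highest of 7 for 43.9% of all genes.

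Neuronal markers were highest on the same 3 arrays as Gpr17. The 12 markers summed to 199.99, 40.5 and 42.5 in wild type day 3, 59.8 in sham and 26.8, 59.5 and 18.8 in the knockout, and their part in the values of Gpr17 was not tested. Gpr17 did not share the order of the 4 factors, since wild type day 3 replicate 1 was its highest array and knockout replicate 1 its lowest. Its root mean square difference from the other 7 genes was 1.36, from Olig1, to 2.42, from Bmp4.

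Between knockout and wild type at day 3, none of the 8 genes passed the test and the arrays of the groups overlapped for every one. In limma with Benjamini-Hochberg adjustment over all 23325 genes, 0 passed an adjusted p of 0.05 (0% of those tested), and 197 were under an unadjusted p of 0.05 (0.845%), of which 50 were higher (0.214%) and 147 lower (0.63%) in the knockout. The arrays of the groups did not overlap for 4.53% of all genes, 1.88% higher and 2.65% lower in the knockout, against 0 of the 8. Pdgfra had a mean of 1.38 ± 0.51 (SD, n = 3) in the knockout and 0.79 ± 0.73 (SD, n = 3) in wild type. Its difference of 0.59 ± 0.46 (SE) was the largest of the higher ones, with a 95% interval of -0.55 to 1.74 and a limma adjusted p of 0.862. The interval includes no difference, and it also includes a knockout level more than 1 log2 unit higher.

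The differences of the 4 factors were smaller. Knockout minus wild type was 0.14 ± 0.35 (SE) for Olig1, 0.24 ± 0.33 for Olig2, 0.24 ± 0.39 for Sox10 and 0.17 ± 0.34 for Nkx2-2. The intervals at 95% ran from -0.73 to 1.01 for Olig1, -0.59 to 1.07 for Olig2, -0.73 to 1.20 for Sox10 and -0.66 to 1.01 for Nkx2-2. The knockout arrays were the more spread, with an SD of 0.73 (n = 3) against 0.11 (n = 3) in wild type for Sox10 and 0.57 against 0.22 for Olig2. These 4 differences turned to -0.17 for Olig1, -0.063 for Nkx2-2, -0.0096 for Olig2 and -0.0063 for Sox10 when knockout replicate 2 was left out, and were 0.40 for Olig1, 0.50 for Nkx2-2, 0.55 for Olig2 and 0.66 for Sox10 without knockout replicate 3.

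Cspg4 differed by 0.28 ± 0.48 (SE), with a 95% interval of -0.90 to 1.46, and Bmp4 by 0.39 ± 0.69, with an interval of -1.34 to 2.11. Without wild type day 3 replicate 1 both turned, to -0.23 for Cspg4 and -0.28 for Bmp4. Gpr17 was the only gene of the 8 with a lower knockout mean, -0.62 ± 1.74 (SD, n = 3) against 0.60 ± 1.91 (SD, n = 3), a difference of -1.22 ± 1.26 (SE) with an interval of -4.35 to 1.90. The difference of Gpr17 was -0.14 without wild type day 3 replicate 1 and -2.22 without knockout replicate 2, so 1 array of either group decided its size.

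Of the 8 differences 7 were higher and 1 lower in the knockout with a median of 0.24, where the median over all genes was -0.03 and 46.9% of all genes were higher. Without wild type day 3 replicate 1, 5 were higher and 3 lower with a median of 0.15, and Pdgfra differed by 0.21, Olig1 by 0.25, Nkx2-2 by 0.26, Sox10 by 0.17 and Olig2 by 0.13. Without knockout replicate 2, 3 were higher and 5 lower with a median of -0.01. The adjusted p of the 8 in limma was 0.862 to 0.895 with all arrays and 1.00 for each without wild type day 3 replicate 1.

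**Figure D3:**
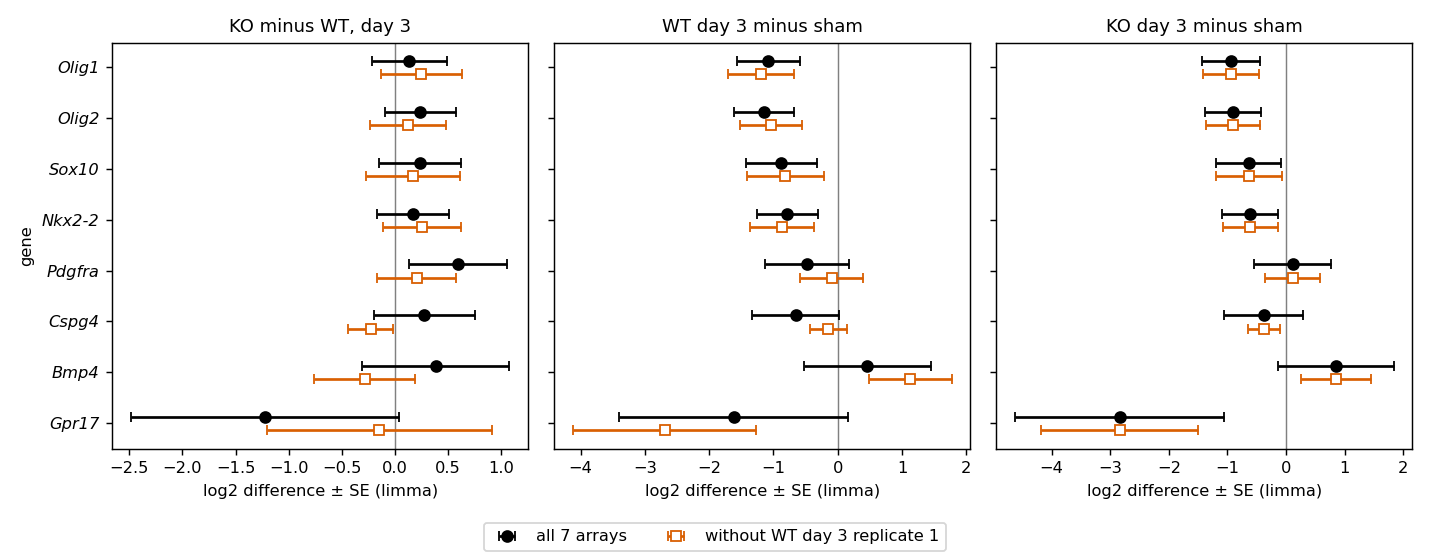
Log2 difference of each of the 8 genes (x axis) in knockout minus wild type at day 3, wild type day 3 minus sham and knockout day 3 minus sham; filled points are limma estimates from all 7 arrays, open squares those without wild type day 3 replicate 1, and bars are standard errors. No gene passes the adjusted threshold, and Cspg4 and Bmp4 change sign in knockout minus wild type without that array.

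Against the sham array, the wild type day 3 mean was lower for 7 of the 8 genes, as for 45.9% of all genes, and every wild type day 3 array was below the sham array for 5, Olig1, Olig2, Sox10, Nkx2-2 and Cspg4. The same held for 11.1% of all genes, and all 3 arrays were above sham for 16.7% of all genes and 0 of the 8. Wild type day 3 minus sham was -1.15 ± 0.47 (SE) for Olig2, a fold of 0.45, and -1.08 ± 0.50 for Olig1, a fold of 0.47. It was -0.88 ± 0.55 for Sox10 and -0.78 ± 0.48 for Nkx2-2. None of the 8 passed in limma, where the unadjusted p was 0.054 for Olig2 and 0.075 for Olig1 and the adjusted p was 1.00 for all 8. With 1 sham array, its own spread was not measured, and the fit takes it to vary as the day 3 arrays did.

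Cspg4 was -0.66 ± 0.67 (SE) and Pdgfra -0.48 ± 0.65 against sham. Without wild type day 3 replicate 1 they were -0.15 and -0.10, so most of each difference came with that array. Bmp4 was the only gene higher, by 0.46 ± 0.98, and by 1.13 without that array, where it was above sham in both remaining arrays. Without wild type day 3 replicate 3 Bmp4 was 0.05 and Pdgfra -0.83. Gpr17 was -1.62 ± 1.78 with all arrays, -2.69 without replicate 1 and -0.87 without replicate 3. The 4 factors moved little: without replicate 1 they were -1.19 for Olig1, -1.03 for Olig2, -0.82 for Sox10 and -0.87 for Nkx2-2. The median of the 8 was -0.83 with all arrays and -0.84 without replicate 1, and the median of all genes was 0.03 and 0.01. The adjusted p in limma stayed at or above 0.768 without replicate 1.

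The knockout day 3 arrays were compared with the same sham array, on another slide, so occlusion, genotype and slide cannot be told apart there and the comparisons share their control. The knockout mean was lower than sham for 6 of the 8, as for 49.6% of all genes. Every knockout array was below the sham array for 6 of the 8, the 4 factors, Cspg4 and Gpr17, as for 25.8% of all genes, and above it for 1, Bmp4, as for 28.5% of all genes. Knockout minus sham was -0.94 for Olig1, -0.91 for Olig2, -0.64 for Sox10 and -0.61 for Nkx2-2, beside -1.08, -1.15, -0.88 and -0.78 in wild type. Without knockout replicate 3, Sox10 was -0.22, Nkx2-2 -0.29, Olig2 -0.60 and Olig1 -0.68, and Bmp4 was 0.44. Gpr17 was -2.84 ± 1.78 (SE), Bmp4 0.85 ± 0.98, Cspg4 -0.38 ± 0.67 and Pdgfra 0.11 ± 0.65. The median of the 8 was -0.63 beside 0.00 over all genes, and the adjusted p in limma was 1.00 for each. In each comparison with sham 3 of 23314 genes passed (0.0129%), BC002059, Cnot9 and Zfp652, all higher at day 3 and none of the 8; they are named after their values were seen.

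Nkx2-2 and Bmp4 each had another probe. The starts of these probes are shown because the order of the arrays differed between the probes of a gene, in lower case, 30 bases each, as printed on the array.
Nkx2-2 brighter probe: tttcaactatgaaaaaggaaaatatgtgta
Nkx2-2 dimmer probe: cacaattgaagcatatatttccacctcttc
Bmp4 brighter probe: caaccacctacacataccacacaaactgct
Bmp4 dimmer probe: gacaaatatatttataactacatattaaaa

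The dimmer Nkx2-2 probe (chr2:147003307-147003366) read -4.16, -2.90 and -2.69 in wild type day 3, -2.16 in sham and -2.46, -2.56 and -3.63 in the knockout. It shared with the brighter probe the high sham array and the low knockout replicate 3, but wild type day 3 replicate 1 was its lowest array, while on the brighter probe that array was the highest of the 3 in its group. It gave 0.37 ± 0.52 (SE) for knockout minus wild type and -1.09 ± 0.74 for wild type day 3 minus sham. The dimmer Bmp4 probe (chr14:47003198-47003257) was well above background on 5 of 7 arrays, not on wild type day 3 replicates 1 and 2. Its G and C content was 15.0%, against 38.3% in the brighter probe and a median of 41.7% over all probes. It read -7.59, -7.79 and -6.57 in wild type day 3, -7.22 in sham and -6.09, -6.44 and -7.06 in the knockout, so knockout replicate 3, the highest array on the brighter probe, was the lowest knockout array on this one.

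Other markers of the precursor stage were examined from a list of 24 that excludes the 8 genes. None passed in any comparison. Against sham, 21 of 24 were lower in wild type day 3, and for 11 of them every array was below the sham array, as for 11.1% of all genes, with a median difference of -0.65. Among them Matn4, a matrix protein, was -1.20, Sulf2, a heparan sulfatase, -1.13 and Ednrb, an endothelin receptor, -0.39. Mmp15, a membrane-bound matrix metalloproteinase, was the 1 marker under an unadjusted p of 0.05, as were 1.13% of all genes, with -0.77 (limma unadjusted p = 0.021, adjusted p = 1.00). In the knockout against the same sham array, 21 of 24 were lower, 18 of 24 without overlap, as for 25.8% of all genes, with a median of -0.83, and Mmp15 was again the 1 marker under an unadjusted p of 0.05, as were 1.32% of all genes (limma adjusted p = 1.00). The sham array was the highest of 7 for 9 of the 24, against 6.67% of all genes. Wild type day 3 replicate 1 was the highest for 12 of the 24, near the 43.9% of all genes. These markers were thus not uniformly of the factors' order.

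Between the genotypes the 24 markers had a median of -0.21, with 7 higher and 17 lower in the knockout, the opposite sign of the 8 genes' median. Without wild type day 3 replicate 1 the median was 0.17, with 19 higher and 5 lower. The arrays did not overlap for 1 of 24 markers, near the 4.53% of all genes. It was Ednrb, at 0.05, -0.31 and 0.06 in the knockout against -0.71, -0.45 and -0.45 in wild type, a difference of 0.47 ± 0.20 (SE) with a limma adjusted p of 0.862. Matn4 differed by 0.60 ± 0.35 and Sulf2 by 0.44 ± 0.32 with overlapping arrays.

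Later stages were measured by 15 markers of newly formed oligodendrocytes and the 20 myelin genes, and none passed. All 20 myelin genes had a wild type day 3 mean under the sham array, 14 without overlap (11.1% of all genes), with a median of -0.89. In the knockout 17 of 20 were lower than sham, 6 without overlap, near the 25.8% of all genes, with a median of -0.57. Hapln2, a link protein of the nodes of Ranvier, was -1.11 in wild type and -0.25 in the knockout against sham, and Cldn11, a tight junction protein of myelin, -0.98 and -0.49. Between the genotypes the myelin genes had a median of 0.16 with all arrays and 0.27 without wild type day 3 replicate 1. The 15 newly formed oligodendrocyte markers had a median of 0.20, and of -0.09 without that array. Sirt2, a deacetylase of myelinating cells, differed by 0.27 ± 0.20 (SE) and Tmem108 by -0.50 ± 0.41.

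**Figure D4:**
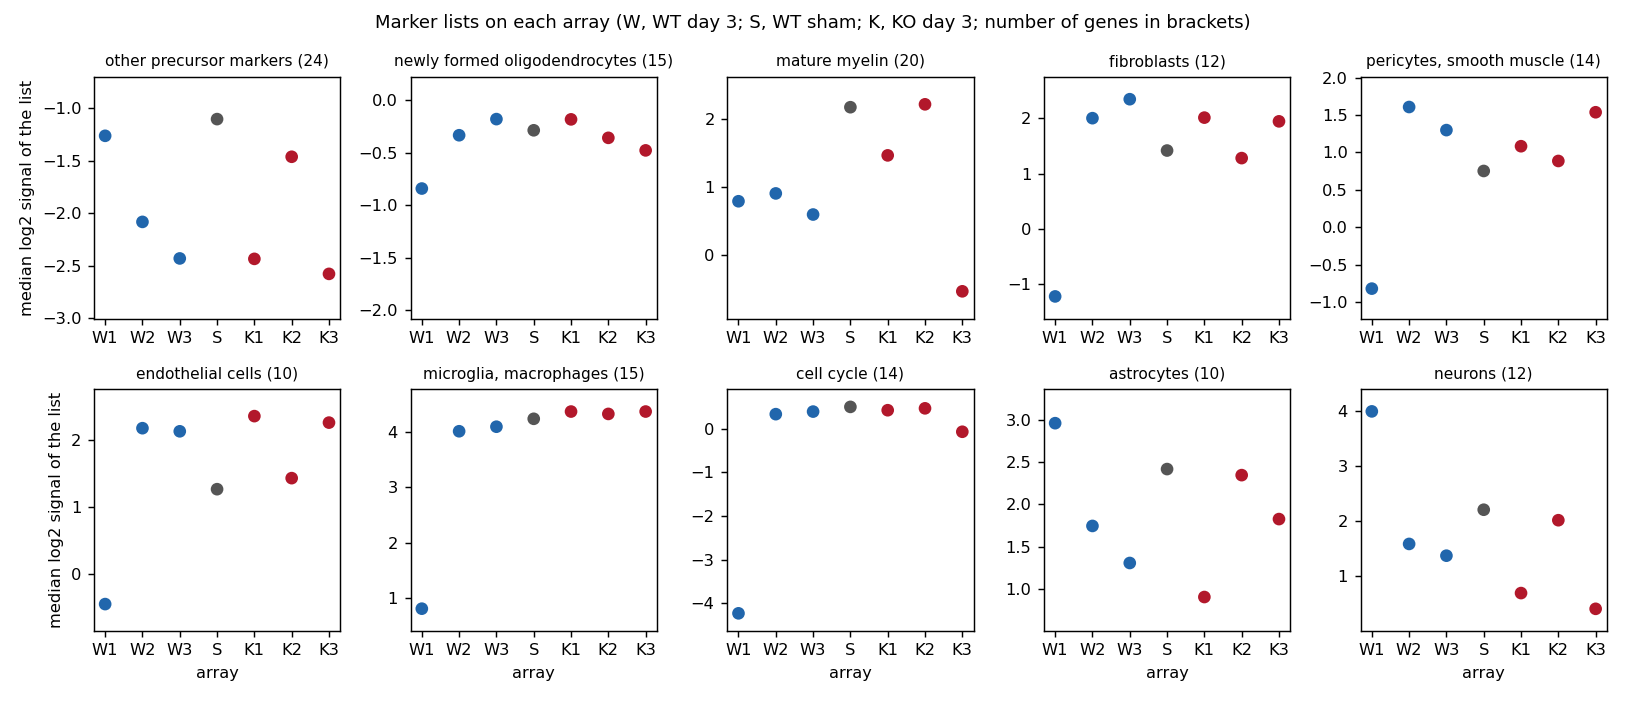
Median log2 level of the genes of 10 lists relative to the array's 75th percentile (y axis) on each of the 7 arrays (x axis; W wild type day 3, S sham, K knockout day 3, with the replicate number), 1 panel per list. Wild type day 3 replicate 1 lies outside the range of the other arrays in every list except the other precursor markers and mature myelin. The myelin median is lowest, at -0.53, on knockout day 3 replicate 3.

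Between the genotypes, the medians of marker lists of other cells depended on wild type day 3 replicate 1. The median of knockout minus wild type was 0.72 for fibroblast markers, 0.57 for pericyte and smooth muscle markers, 0.88 for 10 endothelial markers, 1.26 for microglia and macrophage markers and 1.59 for cell cycle genes, and without that array it was -0.31, -0.25, -0.12, 0.07 and -0.14. It was -1.23 for neuronal markers and -0.40 without that array, and -0.17 and -0.39 for 9 ependymal and choroid plexus markers. Of 10 astrocyte markers 9 were lower with all arrays and 5 without that one. None of these genes passed, and Cnn1, a smooth muscle gene, had the smallest p, with -1.81 ± 0.40 (SE; limma unadjusted p = 0.0046, adjusted p = 0.862). Of the 8 genes only Cspg4 and Bmp4 turned direction without that array, and the part of the other cells in this was not tested.

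The partners of the signalling genes were taken from fixed lists. Of 6 other PDGF ligands and receptors, which include the growth factors that Pdgfra binds, 5 were higher and 1 lower in the knockout than in wild type with a median of 0.58, and without wild type day 3 replicate 1, on which 5 of the 6 were lowest, 2 were higher and 4 lower with a median of -0.06. Pdgfb, a ligand, read 0.74, 2.75 and 2.74 in wild type day 3, 2.00 in sham and 2.52, 2.27 and 3.12 in the knockout. Pdgfd, another ligand, differed by 0.95 ± 0.89 (SE) and Pdgfrl, a receptor-like protein, by 0.59 ± 0.42. The lowest array of Pdgfra was also the lowest of these 3, as it was of 34.3% of all genes, and a link to Pdgfra was not tested.

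Of the other BMP pathway genes 25 of 26 were measured, with a median of -0.03 between the genotypes, 12 higher and 13 lower, and 0.00 without wild type day 3 replicate 1. Id1, a target of BMP signalling that holds back differentiation, read 0.67, 3.38 and 3.74 in wild type day 3, 2.46 in sham and 4.15, 3.23 and 3.89 in the knockout. Its difference of 1.17 ± 0.86 (SE) did not pass, and its level on wild type day 3 replicate 1 was below that of all 6 other arrays. Bmp7, a related ligand, differed by 0.98 ± 0.89 and Fst, an inhibitor of the family, by -1.04 ± 0.98. Of 21 measured glial lineage transcription factors beyond the 4, 9 were higher and 12 lower in the knockout with a median of -0.02, and of -0.12 without that array. Hes5, a Notch target that keeps precursors undifferentiated, read 2.60 on wild type day 3 replicate 1 and between -2.42 and -0.57 on the other 6, and Hey1, another Notch target, read 2.72 there and 0.72 to 1.49 elsewhere. Sox5, a repressor of Sox10 target genes, differed by -0.24 ± 0.20 between the genotypes.

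Genes whose levels ran closest to Olig2, Pdgfra and Gpr17 were taken from 15105 candidates by the root mean square difference of centred log2 levels over the 7 arrays. Nearest to Olig2 were Itgb4, an integrin subunit, at 0.11, Trim36, a ubiquitin ligase, at 0.13 and Erich3 at 0.14. Nearest to Pdgfra were Eid3 at 0.14, Cilk1, a kinase of cilia, at 0.17 and Synm, an intermediate filament protein, at 0.17. Nearest to Gpr17 were Slc2a5, a fructose transporter, at 0.36, Extl1, a glycosyltransferase, at 0.54 and Gpr12, an orphan receptor, at 0.57. Itgb4 was nearer to Olig2 than the other 3 factors were. Slc2a5 read -0.30 on wild type day 3 replicate 1, -1.03 on the sham array and -0.99 on knockout replicate 2 and at most -2.52 on the other 4, which are the high and the low arrays of Gpr17.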

How the data were processed

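Brain RNA of 7 samples was measured, 1 array per sample, with 100 ng of RNA per labelling reaction. The authors deposited scanner intensity files, made per the submitters' processing notes with Agilent Feature Extraction 11.5.1.1, whose processed signal is background-subtracted and detrended within an array, per the file headers. They also deposited a table of linear ratio values, which equal the processed signal over the array's 75th percentile up to a constant per array; its scale constant is unstated and it was used as an alternative only. Flags for dim and outlier spots are those of the deposited files.

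The deposited intensity was taken to log2, the array's log2 75th percentile was subtracted, outlier spots were left out and spots of a probe were averaged. A probe was kept if well above background on 3 or more of the 7 arrays, and the brightest probe stood for a gene. Names followed RefSeq through the accession where it matched, for 28330 of 39429 probes (a GRCm38.p6 table, used for names only), and the files' gene name otherwise. Positions are the array design's, on mm9; exons and UTRs were not annotated here. limma 3.58.1 in R 4.3.3 (lmFit, eBayes, 3 groups, all arrays, two-sided) tested all genes, with Benjamini-Hochberg adjustment at 0.05. The number of arrays limits the precision. On data made with known changes for the knockout comparison (200 of 23305 genes), 0%, 32.8% and 56.1% of log2 changes of 1, 2 and 4 were recovered with the spread of all 6 day 3 arrays and 0 false calls, and 31.3%, 73.1% and 90.9% with the spread without wild type day 3 replicate 1 and 5 false calls. Both settings kept the full number of arrays and drew genes independently. The latter setting therefore does not give the power of the fit without wild type day 3 replicate 1, which has fewer arrays.

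The 8 genes, the 14 lists and the tests were chosen with earlier results of these data known. Named genes are the 8, up to 3 genes of each list with the smallest p between the genotypes, and the 3 nearest profiles of Olig2, Pdgfra and Gpr17. Other genes named were chosen after their values were seen. Alternatives were normexp background correction with an offset of 50, quantile normalization, the deposited ratios, other filters on dim probes, the mean of a gene's probes, only the groups compared, the replicate number as a block, and each array left out.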

Additional observations from a re-analysis of the deposited data

How the results depend on the processing

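No gene of the 8 passed the adjusted threshold under any alternative, with a smallest adjusted p in limma of 0.665. Direction was kept by 324 alternative values and turned in 12. In knockout minus wild type, leaving out 1 array in turn gave -0.28 to 0.80 for Bmp4, -0.23 to 0.54 for Cspg4, -0.17 to 0.40 for Olig1, -0.063 to 0.50 for Nkx2-2, -0.0096 to 0.55 for Olig2 and -0.0063 to 0.66 for Sox10. Leaving out wild type day 3 replicate 1 and the sham array together gave -0.28 for Bmp4 and -0.23 for Cspg4. In knockout minus sham, leaving out 1 array gave -0.041 to 0.41 for Pdgfra. The cause was not tested.

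Knockout minus wild type had 0 genes past the adjusted threshold under every alternative, with 65 to 430 at an unadjusted p under 0.05. Each comparison with sham had 3, and 0 with normexp, with quantile normalization, with probes well above background on all 7 arrays and with only the groups compared. Leaving out 1 array gave 0 to 6 in wild type minus sham and 0 to 8 in knockout minus sham. Neither could be fitted without the sham array. Normexp moved the median of all genes in the comparisons with sham to 0.10 and 0.11.

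Same-numbered wild type and knockout arrays deviated from their group means with correlations of -0.38, -0.56 and 0.35. Wild type day 3 replicate 1 weighs on the mean of its group and so on the deviations of replicates 2 and 3. These values therefore cannot decide whether replicate numbers pair the samples. With the replicate number as a block, 0 genes passed and 149 were at an unadjusted p under 0.05, against 197 without it.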
